A study of Homo sapiens with 27 samples.

Results

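The receptors for fibroblast growth factors (FGFs) and the genes that act directly on their signal were followed through estrogen deprivation in invasive lobular carcinoma (ILC) cells. The group was taken by name from the deposited gene counts, and its 10 genes, of 60619 listed, were the receptors FGFR1, FGFR2, FGFR3 and FGFR4, the kinase-less receptor FGFRL1, the adaptor FRS2, the ligand FGF19, and the inhibitors SPRY1, SPRY4 and DUSP6. RNA was sequenced from MM134 and SUM44 cells, which are estrogen receptor-positive ILC lines, in 9 groups of 3 libraries. Long-term estrogen-deprived (LTED) variants named A, B, D and E stood beside MM134 parental cells, and variants A and B beside SUM44F parental cells. SUM44PE cells, the line from which SUM44F was adapted to another growth medium with fetal serum, formed the ninth group. Before collection the parental cells spent 3 days in medium with charcoal-stripped serum, which is depleted of steroid hormones, whereas LTED variants grew out in that medium over months and were kept in it. Each LTED variant is a separately grown-out derivative, and its 3 libraries came from wells of that variant, so p-values measure the spread between wells and not between derivations.

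FGFs bind receptor tyrosine kinases at the cell surface together with heparan sulfate, and the activated receptor phosphorylates the docking protein FRS2, which passes the signal to RAS and the kinases MEK and ERK. ERK in turn raises the transcription of its own brakes: Sprouty proteins act upstream near RAS and RAF, and DUSP6 is a cytoplasmic phosphatase that removes phosphate from ERK. FGF19 signals mainly through FGFR4 with the co-receptor beta-Klotho, and in ER+ breast carcinoma FGFR1 is known as a frequently amplified gene, also in these cell lines.

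Libraries held between 28583554 and 134882175 estimated counts, with a median of 44018412. SUM44 LTED-A replicates 2 and 3 differed by less than sampling noise (chi-square per degree of freedom of 0.312, against 2.35 to 58.3 in the other 26 replicate pairs) and were counted as 1 library, which left 26 libraries and n = 2 for that variant. The highest value, 58.3, was between LTED-A replicates 1 and 2. SUM44F replicate 3 differed from replicates 1 and 2 at 42.9 and 39.3, against 14.2 between those 2. The measure also grows with library depth. SUM44F replicate 1 stood apart in its summed fibroblast markers (COL1A1, COL1A2, COL3A1, DCN and LUM), at 350.4 normalized CPM (counts scaled to a common library size) against 4.96 to 35.4 CPM in the other 25 libraries, so calls in the LTED variants that change without it are given both ways for the 10 genes and for the pathway genes named. Luminal epithelial markers (7 genes, ESR1, GATA3, FOXA1, XBP1 and keratins among them) summed to between 3499 and 8580 CPM in every library, at 3499 to 3604 CPM in MM134 parental cells and 5583 to 6229 CPM in MM134 LTED cells. The sum does not stand for ESR1, which ran from 148 to 1425 CPM over all libraries, beside 301 to 3150 CPM for XBP1. The authors report decreased estrogen receptor protein in MM134 LTED cells. Leukocyte markers summed to 24.0 to 24.5 CPM in MM134 LTED-A and at most 9.52 CPM in every other library. The T cell gene CD3E was at or under 0.152 CPM throughout. Among the other leukocyte markers the highest level in a library was 15.2 CPM, so CD3E does not stand for the sum. Endothelial markers (PECAM1, VWF, CDH5 and KDR) summed to 25.8 to 44.9 CPM in SUM44F, 10.9 to 11.1 CPM in SUM44PE and 2.797 to 4.52 CPM in the SUM44 LTED variants. This level thus moved with every comparison to SUM44F. The highest sum was in SUM44F replicate 1, the library with the fibroblast markers, and the lowest SUM44F sum, 25.8 CPM, in another replicate. In replicate 1 PECAM1 and VWF reached 27.3 and 12.4 CPM, each more than the whole sum in any library outside SUM44F. KDR reached 4.32 CPM and CDH5 0.825 CPM, in the same library. The part of these markers in the results was not tested, and in bulk RNA fewer cells of a type cannot be told apart from less RNA per cell. Levels are given as normalized CPM on a single scale over all libraries. A gene was called differentially expressed (DE) in the edgeR quasi-likelihood test when its fold change exceeded 1.5 and its Benjamini-Hochberg (BH) adjusted p was under 0.001.

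Of the 10 genes, 9 had enough counts to be tested. FGFR4 was upregulated in 3 of the 4 variants derived from MM134 and in both derived from SUM44, and SPRY1 in all 6. In MM134 the receptor FGFR2 was downregulated in all 4 LTED variants, and FGFR1 and FGFRL1 in 3 of 4, while SPRY4 was upregulated in all 4 and FGFR3 in 3. DUSP6 was upregulated in MM134 LTED-A and LTED-D and downregulated in both SUM44 LTED variants. FRS2 was DE in none of the 6 variants in the edgeR quasi-likelihood test or in DESeq2, although its unadjusted p was under 0.05 in 5 of them, with fold changes under the limit.

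Counted by variant, 6 of the 9 genes were DE in MM134 LTED-A, beside 20.3% of all genes tested, and 7 of 9 in LTED-B, beside 15.9%. The same number was DE in LTED-D, beside 17.6%, and 6 of 9 in LTED-E, beside 19.0%. In SUM44, 4 of 9 were DE in LTED-A, beside 13.7%, and 5 of 9 in LTED-B, beside 17.3%. In at least 3 MM134 variants 4 of the 9 were upregulated (FGFR3, FGFR4, SPRY1 and SPRY4), beside 6.66% of all genes, and 3 were downregulated (FGFR1, FGFR2 and FGFRL1), beside 6.83%. In both SUM44 variants 2 were upregulated (FGFR4 and SPRY1), beside 3.87%, and 1 was downregulated (DUSP6), beside 4.75%. The variants of a line were set against the same parental libraries, so these counts are not independent of each other.

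**Figure D1:**
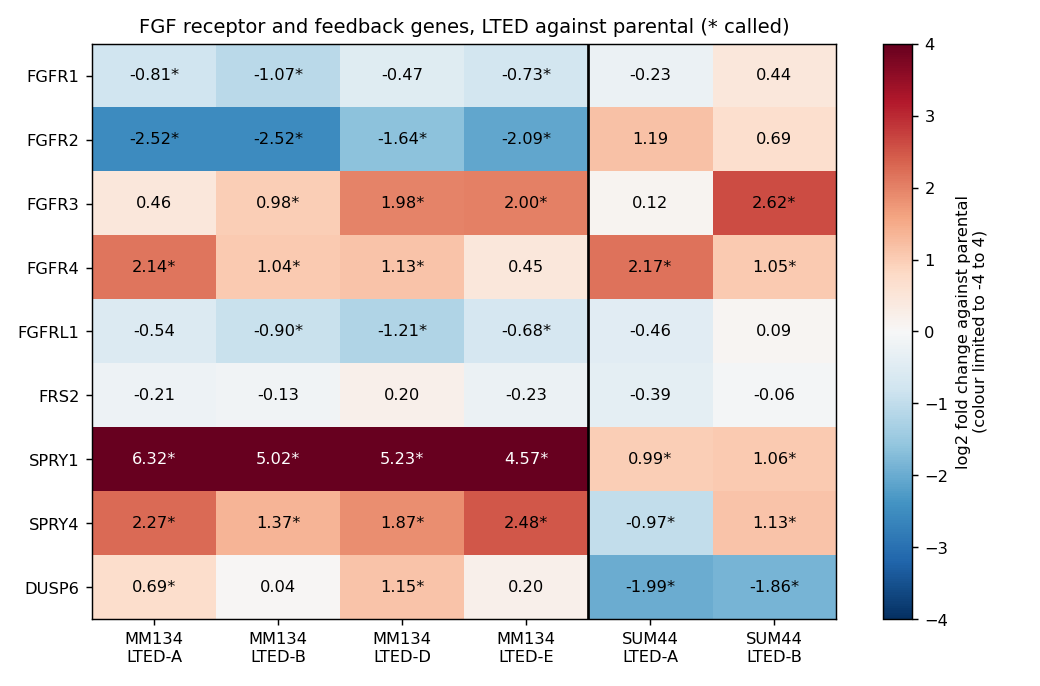
Heat map of the log2 fold change of the 9 tested genes (rows) in each LTED variant against its parental cells (columns), red for higher and blue for lower, with an asterisk on the DE genes. SPRY1 was higher in all 6 columns, from 0.99 to 6.32, and DUSP6 had its lowest values, -1.99 and -1.86, in the SUM44 columns.

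The ligand FGF19 (ENSG00000162344; chromosome 11, 69698238-69704022, minus strand, GRCh38) was at or near 0 throughout. It had at most 2 counts in every library except SUM44PE replicate 2, where 5 counts were assigned. In that library the level was 0.106 CPM, and the 16 libraries with no count were spread over both lines, parental cells and LTED variants. FGF19 was therefore below the 3 counts taken as detectable in 25 of 26 libraries, was left out of every test, and no difference could be seen at this depth. Its chromosomal neighbour CCND1, the cyclin that drives cells into S phase, was by contrast at 5266 ± 144 CPM (SD, n = 3) in MM134 parental and 469.5 ± 46.0 CPM in SUM44F cells. CCND1 was downregulated in MM134 LTED-A and LTED-B (log2 fold changes -1.05 (SE 0.032) and -0.69 (SE 0.031)) and upregulated in SUM44 LTED-A and LTED-B (1.79 (SE 0.12) and 1.65 (SE 0.11)).

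FGFR1 (ENSG00000077782; chromosome 8, 38400215-38468834, minus strand) had the highest level per kb of transcript of the 10 genes in the parental cells of both lines. MM134 parental libraries read 2283, 2301 and 2242 CPM. The LTED-A libraries read 1257, 1283 and 1373 CPM, and those of LTED-B 1071, 1109 and 1072 CPM. Every library of these variants lay below every parental library. LTED-D read 1616, 1598 and 1672 CPM and LTED-E 1355, 1358 and 1387 CPM, again without overlap with the parental cells. FGFR1 fell by 1.07 on the log2 scale in LTED-B (SE 0.030; edgeR quasi-likelihood test, BH-adjusted p = 1.1e-15), which is 2.09-fold lower, and had log2 fold changes of -0.81 (SE 0.030) in LTED-A and -0.73 (SE 0.029) in LTED-E. In LTED-D its log2 fold change of -0.47 (SE 0.029) stayed within the 1.5-fold limit and was not DE.

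In SUM44 the level of FGFR1 was several-fold lower and moved less. SUM44F libraries read 451, 473 and 405 CPM, LTED-A 382 and 373 CPM and LTED-B 578, 612 and 612 CPM. LTED-A lay just below and LTED-B above all 3 SUM44F libraries, in opposite directions. Neither variant was DE against SUM44F, with log2 fold changes of -0.23 (95% interval -0.42 to -0.036) and 0.44 (95% interval 0.27 to 0.61). The difference between the variants themselves was -0.67 (SE 0.10) for LTED-A minus LTED-B (edgeR quasi-likelihood test, BH-adjusted p = 0.000667). That call did not hold when any library of either variant was left out, although the difference then stayed between -0.69 and -0.65, and it was also lost with RLE scaling (-0.67, BH-adjusted p = 0.00173 in the edgeR quasi-likelihood test).

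FGFR4 (ENSG00000160867; chromosome 5, 177086905-177098144, plus strand), the receptor best known for binding FGF19, went the other way. In MM134 parental cells the libraries read 157, 163 and 159.8 CPM and in LTED-A 682, 698 and 745 CPM. LTED-B read 323, 341 and 321 CPM, LTED-D 336, 346 and 361 CPM and LTED-E 214, 221 and 219 CPM. All 12 LTED libraries were above all 3 parental ones, with LTED-A far above the rest. The upregulation was 4.40-fold in LTED-A (log2 fold change 2.14 (SE 0.035); edgeR quasi-likelihood test, BH-adjusted p = 2.93e-19), 2.06-fold in LTED-B and 2.19-fold in LTED-D. LTED-E, at 1.37-fold (log2 fold change 0.45 (SE 0.034)), did not reach the fold limit.

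SUM44 variants showed increases of the same order. SUM44F libraries read 94.4, 97.2 and 78.3 CPM, SUM44 LTED-A 396 and 413 CPM and SUM44 LTED-B 179, 184 and 195 CPM. The 3 groups did not overlap, and LTED-A was the highest. FGFR4 was upregulated 4.51-fold in LTED-A (log2 fold change 2.17 (SE 0.10); edgeR quasi-likelihood test, BH-adjusted p = 8.46e-08) and 2.07-fold in LTED-B (1.05 (SE 0.091), BH-adjusted p = 6.39e-06). Without SUM44F replicate 1 the log2 fold changes were 2.21 and 1.08, and both remained DE. In each line the variant designated A had the higher level, and the letters do not link variants of different lines.

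**Figure D2:**
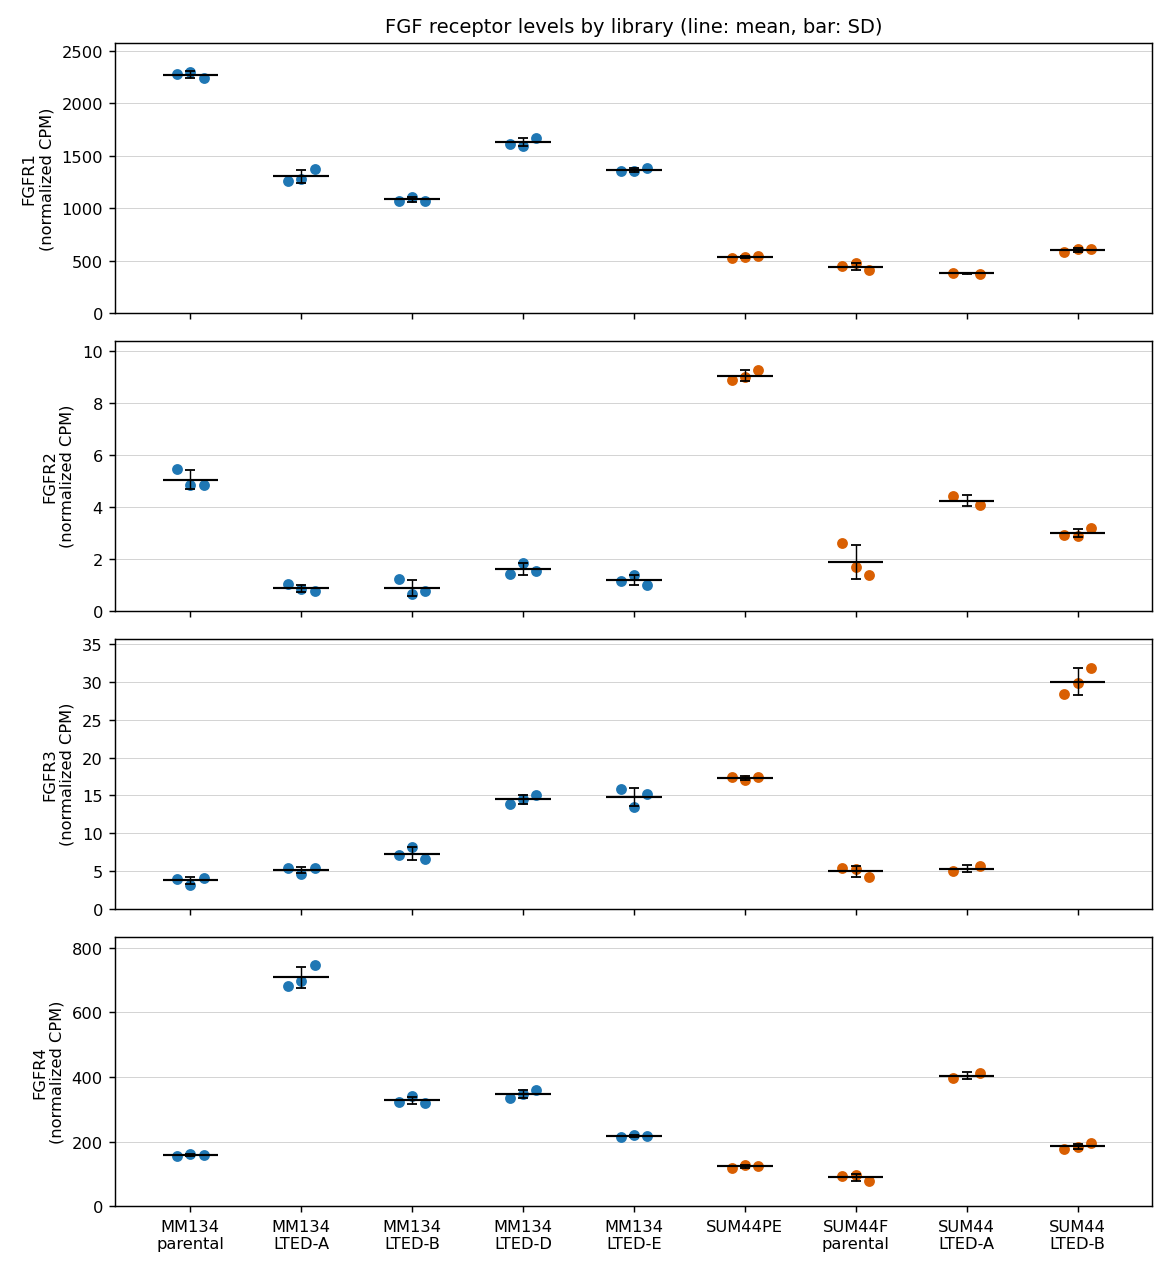
Normalized CPM of FGFR1, FGFR2, FGFR3 and FGFR4 in each library (points; MM134 in blue, SUM44 in orange) by group, with the group mean (line) and SD (bar), on separate linear axes that start at 0. FGFR1 was highest in MM134 parental cells and FGFR4 in MM134 LTED-A, while FGFR2 and FGFR3 stayed below 35 CPM in every library.

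FGFR3 (ENSG00000068078; chromosome 4, 1793293-1808872, plus strand) was a low receptor transcript that separated the variants of each line. MM134 parental libraries read 3.86, 3.18 and 4.11 CPM, LTED-A 5.33, 4.59 and 5.36 CPM and LTED-B 7.08, 8.17 and 6.54 CPM. LTED-D read 13.8, 14.5 and 15.03 CPM and LTED-E 15.8, 13.4 and 15.1 CPM. LTED-D and LTED-E overlapped each other and lay above all other MM134 libraries. FGFR3 was upregulated 3.94-fold in LTED-D (log2 fold change 1.98 (SE 0.10)) and 4.01-fold in LTED-E (2.004 (SE 0.10); edgeR quasi-likelihood test, BH-adjusted p = 5.44e-12), and to a smaller extent in LTED-B (0.98 (SE 0.11)). In LTED-A the log2 fold change of 0.46 (SE 0.11) was not DE.

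In SUM44 the split of FGFR3 was wider. SUM44F libraries read 5.36, 5.25 and 4.14 CPM and LTED-A libraries 4.94 and 5.64 CPM. LTED-B libraries read 28.4, 29.9 and 31.9 CPM, and SUM44PE libraries 17.4, 17.0 and 17.5 CPM. LTED-A overlapped SUM44F, whereas LTED-B exceeded every other library of the series. The log2 fold change was 2.62 (SE 0.12) in LTED-B (edgeR quasi-likelihood test, BH-adjusted p = 5.55e-08) and 0.12 in LTED-A (95% interval -0.14 to 0.37), and the variants differed by -2.50 (SE 0.14) (LTED-A minus LTED-B, BH-adjusted p = 7.4e-07).

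FGFR2 (ENSG00000066468; chromosome 10, 121478332-121598458, minus strand) had the lowest level per kb of reference transcript of the 4 kinase receptors in every group but MM134 parental cells. Per kb of all annotated exons it was the lowest there as well (0.268 against 0.767 CPM per kb for FGFR3). MM134 parental libraries read 5.46, 4.83 and 4.83 CPM, LTED-A 1.01, 0.836 and 0.744 CPM and LTED-B 1.21, 0.638 and 0.771 CPM. LTED-D read 1.42, 1.85 and 1.53 CPM and LTED-E 1.16, 1.38 and 0.991 CPM. All 12 LTED libraries were below the parental ones, and the 4 variants partly overlapped. FGFR2 was downregulated in all 4, from a log2 fold change of -1.64 (SE 0.18) in LTED-D to -2.52 (SE 0.18) in LTED-A (edgeR quasi-likelihood test, BH-adjusted p = 2.49e-07 and 5.42e-10).

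SUM44F libraries read 2.60, 1.68 and 1.36 CPM for FGFR2, LTED-A 4.40 and 4.08 CPM and LTED-B 2.92, 2.89 and 3.17 CPM. The first SUM44F library, the one with the fibroblast markers, was the highest of its group, and both LTED variants lay above all 3. With all libraries neither variant was DE, at 1.19 (SE 0.23) (edgeR quasi-likelihood test, BH-adjusted p = 0.00241) and 0.69 (SE 0.22) (BH-adjusted p = 0.0245). Without SUM44F replicate 1 the log2 fold changes were 1.49 (BH-adjusted p = 0.000102) and 0.99 (BH-adjusted p = 0.000874), both DE. In SUM44PE, at 8.87, 8.99 and 9.27 CPM, FGFR2 had its highest level of all groups.

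To compare receptors with each other, levels were divided by the length of the MANE Select transcript, the single reference transcript agreed for each gene. On this scale FGFR1 made up 88.1% ± 0.172 (SD, n = 3) of the summed level of the 4 receptors in MM134 parental cells and FGFR4 11.4% ± 0.189. In MM134 LTED-A the shares were 49.8% ± 0.0372 for FGFR1 and 49.9% ± 0.0613 for FGFR4, which did not differ beyond the spread between wells. FGFR4 made up 35.6% ± 0.291 in LTED-B, 28.0% ± 0.469 in LTED-D and 22.4% ± 0.308 in LTED-E, and its share was above the parental one in all 12 LTED libraries. The summed level was 453 ± 5.73 CPM per kb in MM134 parental cells and 459 ± 21.4 in LTED-A, which overlapped, but 298 ± 7.32 in LTED-B, 402 ± 10.4 in LTED-D and 314 ± 3.49 in LTED-E, which all lay below the parental libraries.

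In SUM44F cells FGFR1 made up 71.8% ± 0.914 and FGFR4 26.8% ± 0.764 of the receptor sum. In SUM44 LTED-A the order turned, with 33.3% ± 1.01 for FGFR1 and 65.7% ± 0.994 (SD, n = 2) for FGFR4. LTED-B kept more FGFR1 (60.9% ± 0.676) than FGFR4 (34.7% ± 0.574), and had the largest share of FGFR3 in the series, 4.03% ± 0.105. The order depends on the length used: over the union of all annotated exons, which is far longer for FGFR1 than the reference transcript, the share of FGFR4 was 65.7% in MM134 LTED-A, 51.4% in MM134 LTED-B and 48.4% in SUM44 LTED-B, above that of FGFR1 in each. With both lengths the FGFR4 share was higher in every LTED variant than in its parental cells.

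**Figure D3:**
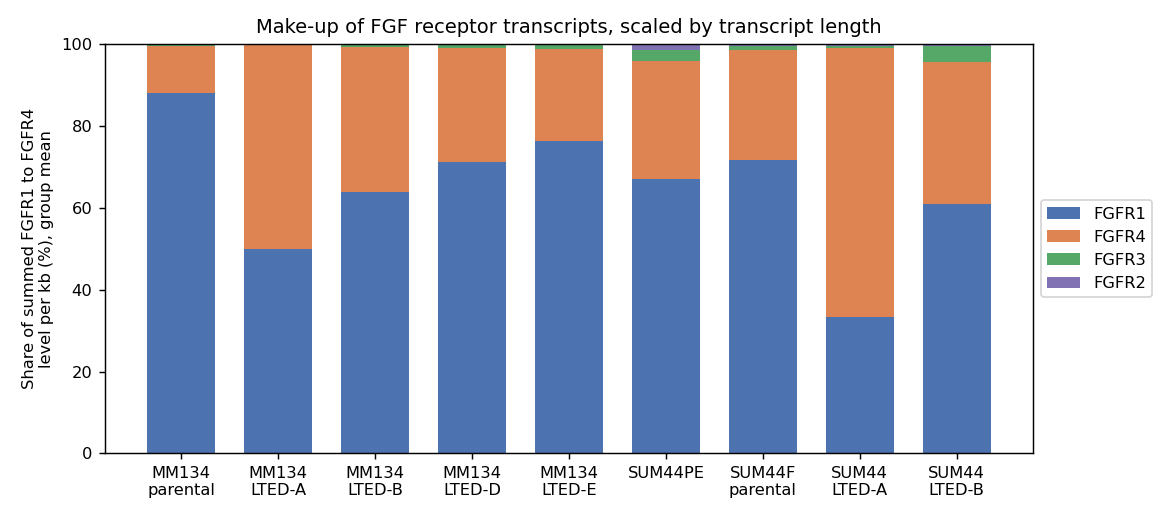
Stacked bars of each receptor's share (%) of the summed FGFR1 to FGFR4 level per kb of reference transcript, as the mean of each group. FGFR1 took 88.1% in MM134 parental cells and 49.8% in MM134 LTED-A, and 71.8% in SUM44F and 33.3% in SUM44 LTED-A.

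FGFRL1 (ENSG00000127418; chromosome 4, 1009936-1026898, plus strand) binds FGFs but lacks the kinase domain, and lies 766 kb from FGFR3. Its libraries ranged from 27.4, 28.9 and 28.4 CPM in MM134 parental cells to 11.5, 11.96 and 12.9 CPM in LTED-D. All MM134 LTED libraries were below the parental ones. FGFRL1 was downregulated in LTED-D (log2 fold change -1.21 (SE 0.058); edgeR quasi-likelihood test, BH-adjusted p = 3e-12), LTED-B (-0.90 (SE 0.056)) and LTED-E (-0.68 (SE 0.055)), and its -0.54 (SE 0.053) in LTED-A was within the fold limit. Without LTED-A replicate 3 that value passed the limit as well, at -0.60. The neighbours FGFR3 and FGFRL1 thus had log2 fold changes of opposite sign in all 4 MM134 variants. In SUM44 neither variant was DE for FGFRL1, at -0.46 (95% interval -0.75 to -0.16) and 0.090 (95% interval -0.17 to 0.35).

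FRS2 (ENSG00000166225; chromosome 12, 69470349-69579793, plus strand), the adaptor that all 4 kinase receptors share, was the steadiest of the 9. Group means ran from 47.1 to 63.4 CPM among MM134 groups and from 106 to 144 CPM among SUM44 groups. The lines did not overlap, and within each line the ratio of the highest to the lowest group mean was smaller than for the other 8 genes tested. Its log2 fold changes lay between -0.39 in SUM44 LTED-A and 0.20 in MM134 LTED-D. The largest of these, in SUM44 LTED-A, had a 95% interval of -0.52 to -0.25. Without SUM44F replicate 1 it was -0.39 (SE 0.087), also not DE.

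Of the feedback inhibitors, SPRY1 had the largest changes in MM134. SPRY1 (ENSG00000164056; chromosome 4, 123396795-123403760, plus strand), a Sprouty protein that restrains receptor tyrosine kinase signalling, was low in MM134 parental cells and far higher in their LTED variants. MM134 parental libraries read 1.17, 1.16 and 1.17 CPM. LTED-A read 94.0, 91.3 and 95.4 CPM and LTED-B 36.5, 35.7 and 41.5 CPM. LTED-D read 45.4, 42.6 and 42.8 CPM and LTED-E 27.2, 27.1 and 28.5 CPM. No LTED library came within 20-fold of a parental one, and LTED-A was the highest of the 4. SPRY1 was upregulated 79.7-fold in LTED-A (log2 fold change 6.32 (SE 0.072); edgeR quasi-likelihood test, BH-adjusted p = 2.15e-21), 37.6-fold in LTED-D, 32.5-fold in LTED-B and 23.8-fold in LTED-E (4.57 (SE 0.079)).

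In SUM44 the change in SPRY1 was in the same direction and smaller. SUM44F libraries read 5.69, 5.70 and 4.97 CPM, LTED-A 10.1 and 11.4 CPM and LTED-B 12.02, 11.1 and 11.0 CPM. Both variants lay above SUM44F and overlapped each other. The log2 fold changes were 0.99 (SE 0.11) in LTED-A and 1.06 (SE 0.11) in LTED-B (edgeR quasi-likelihood test, BH-adjusted p = 6.72e-05 and 1.64e-05), and without SUM44F replicate 1 they were 1.02 and 1.09.

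SPRY4 (ENSG00000187678; chromosome 5, 142310427-142326455, minus strand) is a second Sprouty. The parental MM134 libraries read 33.1, 33.9 and 35.6 CPM and those of LTED-A 163, 163 and 171 CPM. LTED-B read 84.9, 90.3 and 88.9 CPM, LTED-D 127, 118 and 126 CPM and LTED-E 189, 186 and 194 CPM. The 5 MM134 groups did not overlap, and LTED-E, which had the least SPRY1 of the variants, had the most SPRY4. The log2 fold changes were 2.48 (SE 0.038) in LTED-E (edgeR quasi-likelihood test, BH-adjusted p = 1.16e-19), 2.27 (SE 0.037) in LTED-A, 1.87 (SE 0.038) in LTED-D and 1.37 (SE 0.038) in LTED-B.

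The SUM44 variants were called in opposite directions for SPRY4. SUM44F libraries read 23.1, 25.9 and 19.4 CPM, LTED-A 13.7 and 9.59 CPM and LTED-B 49.6, 49.6 and 49.7 CPM. LTED-A lay below and LTED-B above all SUM44F libraries. SPRY4 fell by 0.97 on the log2 scale in LTED-A (SE 0.16; edgeR quasi-likelihood test, BH-adjusted p = 0.000625) and rose by 1.13 in LTED-B (SE 0.13, BH-adjusted p = 6.22e-05). The call in LTED-A was lost without SUM44F replicate 1 (-0.97, BH-adjusted p = 0.00143), and also without SUM44F replicate 2 (-0.86) or the merged LTED-A library (-0.73), whereas the difference of LTED-A minus LTED-B, -2.10 (SE 0.16) (BH-adjusted p = 7.11e-06), was not lost when any library was left out.

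DUSP6 (ENSG00000139318; chromosome 12, 89347235-89352501, minus strand), the ERK phosphatase, separated the lines. The MM134 parental cells read 85.4, 80.5 and 88.0 CPM, LTED-A 139, 137 and 136 CPM and LTED-B 85.0, 88.1 and 86.4 CPM. LTED-D read 181, 191 and 188 CPM and LTED-E 94.4, 95.3 and 99.1 CPM. LTED-A and LTED-D stood above the parental cells, LTED-B overlapped them, and LTED-E lay just above. DUSP6 was upregulated in LTED-D (log2 fold change 1.15 (SE 0.033); edgeR quasi-likelihood test, BH-adjusted p = 1.45e-15) and LTED-A (0.69 (SE 0.033)). It was not DE in LTED-B (0.036, 95% interval -0.030 to 0.10) or LTED-E (0.20, 95% interval 0.13 to 0.26), and neither interval reaches a 1.5-fold change.

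In SUM44, DUSP6 dropped in both variants. SUM44F libraries read 58.3, 59.9 and 53.0 CPM and SUM44PE libraries 54.9, 55.8 and 55.1 CPM. LTED-A read 13.9 and 14.8 CPM and LTED-B 16.0, 15.4 and 15.9 CPM. The variants were close to each other and far below both parental groups. The log2 fold changes were -1.99 (SE 0.086) in LTED-A, 3.96-fold lower, and -1.86 (SE 0.074) in LTED-B, 3.62-fold lower (edgeR quasi-likelihood test, BH-adjusted p = 5.48e-08 and 2.12e-08). SUM44 LTED-A thus had less SPRY4 and DUSP6 and more SPRY1 than SUM44F.

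**Figure D4:**
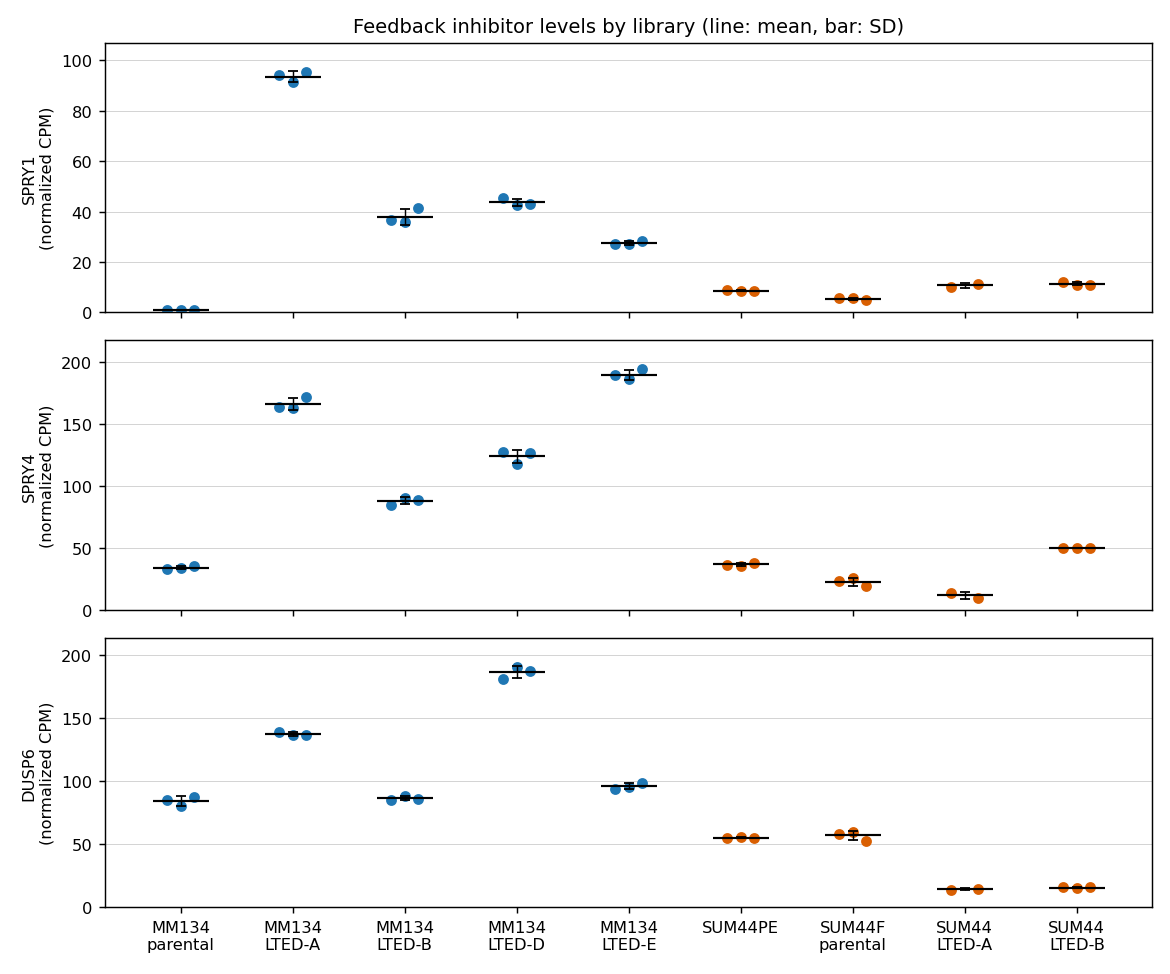
Normalized CPM of SPRY1, SPRY4 and DUSP6 in each library (points; MM134 in blue, SUM44 in orange) by group, with the group mean (line) and SD (bar), on linear axes that start at 0. The mean of SPRY1 was 1.17 CPM for parental MM134 and 93.6 CPM for its variant LTED-A, and DUSP6 lay below 17 CPM in both SUM44 LTED variants.

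The promoters of the 3 feedback genes are shown because these genes moved together in MM134 LTED-A and LTED-D and apart in SUM44. Each sequence holds the 250 bases upstream of a RefSeq transcription start (GRCh38.p14), 5′ to 3′ on the strand of the gene, with a searched motif in capitals. SPRY1 has 2 listed starts, of which the one with a match is shown (chr4:123398136-123398385, plus strand), followed by SPRY4 (chr5:142324248-142324497, minus strand) and DUSP6 (chr12:89352502-89352751, minus strand).
SPRY1: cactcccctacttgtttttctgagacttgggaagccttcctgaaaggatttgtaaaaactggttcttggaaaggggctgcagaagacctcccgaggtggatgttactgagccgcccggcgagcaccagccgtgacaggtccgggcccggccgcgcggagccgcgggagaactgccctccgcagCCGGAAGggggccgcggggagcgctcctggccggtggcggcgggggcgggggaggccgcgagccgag
SPRY4: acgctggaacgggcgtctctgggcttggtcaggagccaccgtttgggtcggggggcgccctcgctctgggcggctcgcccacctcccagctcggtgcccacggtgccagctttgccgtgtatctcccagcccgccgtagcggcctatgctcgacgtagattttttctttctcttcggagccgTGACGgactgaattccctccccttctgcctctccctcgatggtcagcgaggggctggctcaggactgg
DUSP6: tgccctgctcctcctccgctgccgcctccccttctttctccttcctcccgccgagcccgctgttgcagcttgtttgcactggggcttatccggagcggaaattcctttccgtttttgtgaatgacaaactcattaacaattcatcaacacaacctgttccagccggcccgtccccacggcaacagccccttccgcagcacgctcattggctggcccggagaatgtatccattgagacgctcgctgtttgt
On both strands 5 motifs were searched: the ETS family core CCGGAAG, the AP-1 site TGANTCA, the estrogen receptor motif AGGTCA, the SREBP site TCACNCCAC and the cyclic AMP response motif TGACG. SPRY1 held CCGGAAG at 67 bases upstream in 1 of its 2 windows, a motif present in 8.52% of 35116 single promoters of the same length. SPRY4 held TGACG at 68 bases upstream, which 21.2% of promoters hold, and the DUSP6 window held none of the 5. FGFR4, with 2 listed starts, had no match in either window, and no promoter of the 3 feedback genes held TGANTCA (6.57% of promoters), AGGTCA (12.1%) or TCACNCCAC (0.883%). Of the other genes searched, FRS2, DE in no LTED variant, also held CCGGAAG, at 15 bases upstream. AGGTCA lay 57 bases upstream of 1 of 5 FGFR2 starts, and TGACG 18 bases upstream of the FGFRL1 start. A match describes the letters only.

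Whether the LTED change itself differed between the lines was tested as an interaction, the mean change over the 4 MM134 variants minus the mean change over the 2 SUM44 variants. Of the 9 genes, 6 differed, beside 20.9% of all genes. The change was more positive in MM134 for SPRY1 (4.25 (SE 0.10)), DUSP6 (2.43 (SE 0.054)) and SPRY4 (1.92 (SE 0.10)) (edgeR quasi-likelihood test, BH-adjusted p = 3.77e-19, 9.41e-20 and 6.05e-13). For SPRY4 the SUM44 mean joins variants called in opposite directions. The direction was not shared by feedback inhibitors at large: of 10 others, 1 was more positive and 2 more negative in MM134. It was more negative in MM134 for FGFR2 (-3.15 (SE 0.24)), FGFR1 (-0.88 (SE 0.057)) and FGFRL1 (-0.66 (SE 0.11)). The FGFRL1 difference was lost without SUM44F replicate 3, at -0.51. For FGFR4 the difference was -0.43 (95% interval -0.56 to -0.29) and for FGFR3 -0.031 (95% interval -0.30 to 0.24), neither past the limit. Without SUM44F replicate 1 the FGFR4 difference was -0.48 (SE 0.083), also not DE. For FGFR3 the SUM44 mean joins LTED-B, which was DE against SUM44F, and LTED-A, which was not. The FGFR3 value therefore describes the means and neither variant, and does not show an equal change in the lines.

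The parental lines differed in 6 of the 9 genes, beside 38.1% of all genes. MM134 parental cells had 5.08-fold more FGFR1 than SUM44F (log2 difference 2.34 (SE 0.050); edgeR quasi-likelihood test, BH-adjusted p = 1.59e-20), and more FGFR2 (1.43 (SE 0.20)), FGFR4 (0.82 (SE 0.058)) and FGFRL1 (0.62 (SE 0.093)). They had less SPRY1 (-2.23 (SE 0.10)) and FRS2 (-1.33 (SE 0.034)). Set side by side, MM134 parental cells had the most FGFR1 of all 9 groups and the least SPRY1. SPRY4 was at 0.57 (SE 0.086), just within the fold limit, and past it in 7 alternatives (0.59 to 0.66), namely with DESeq2, with RLE scaling, without the filter on low counts, and without MM134 parental replicate 1 or 2 or SUM44F replicate 1 or 2. DUSP6, not DE with all libraries, passed the limit without MM134 parental replicate 2 (0.60). FGFRL1 was not DE without SUM44F replicate 3, at 0.49.

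SUM44PE and SUM44F were grown in different media before both spent 3 days in medium with charcoal-stripped serum. They differed in 4 of the 9 genes, beside 5.57% of all genes. SUM44PE cells had more FGFR2 (2.27 (SE 0.19); edgeR quasi-likelihood test, BH-adjusted p = 2.27e-06) and FGFR3 (1.81 (SE 0.11), BH-adjusted p = 1.15e-07). SPRY1 (0.65 (SE 0.10)) and SPRY4 (0.68 (SE 0.12)) passed narrowly. Both lost the call when any SUM44PE library was left out, at 0.64 to 0.67 and 0.65 to 0.70. They lost it on adjusted p and not on fold change. SPRY1 also lost the call without SUM44F replicate 2, at 0.68, and SPRY4 without SUM44F replicate 3, at 0.60, again on adjusted p. Without SUM44F replicate 1 SPRY4 was not DE (0.69, BH-adjusted p = 0.00285). FGFR4 was at 0.45 (95% interval 0.29 to 0.62), DUSP6 at -0.056 (95% interval -0.18 to 0.066). FGFR3 in SUM44PE lay between SUM44F and SUM44 LTED-B.

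MM134 variants also differed among themselves. LTED-A had more FGFR4 than LTED-B, LTED-D and LTED-E (log2 differences 1.10 (SE 0.034), 1.01 (SE 0.034) and 1.68 (SE 0.034)) and more SPRY1 (1.29 (SE 0.044), 1.08 (SE 0.044) and 1.74 (SE 0.045)). LTED-D and LTED-E shared the higher FGFR3 level, with a difference of -0.025 (95% interval -0.20 to 0.15), but not that of DUSP6, which was higher in LTED-D (0.96 (SE 0.032)). LTED-E had more SPRY4 than LTED-B (LTED-B minus LTED-E, -1.11 (SE 0.034)). For FGFR4, LTED-B minus LTED-E passed narrowly at 0.59 and fell short without LTED-B replicate 2 (0.56) or LTED-E replicate 1 (0.57) or 3 (0.58), with DESeq2 (0.58) and without the filter on low counts (0.58). For FGFR1, LTED-B minus LTED-D (-0.60) fell short without LTED-D replicate 3, and for SPRY4, LTED-D minus LTED-E (-0.61) without LTED-D replicate 2, each at -0.58. Genes DE between variants numbered 4 of 9 for LTED-A against LTED-B, beside 7.06% of all genes, and 4 for LTED-A against LTED-D, beside 9.88%. They numbered 3 for LTED-A against LTED-E, beside 7.84%, and 3 for LTED-B against LTED-D, beside 7.40%. For LTED-B against LTED-E they numbered 3, beside 9.78%, and for LTED-D against LTED-E 4, beside 11.6%. SUM44 LTED-A and LTED-B differed in 4 of 9 (FGFR1, FGFR3, FGFR4 and SPRY4), beside 7.42%.

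The order of group means shows how each gene was arranged over the series. FGFR1 was highest in MM134 parental cells and lowest in SUM44 LTED-A, a 6.02-fold span, with 1 of 8 pairs of neighbouring groups overlapping (MM134 LTED-E and LTED-A). FGFR4 spanned 7.87-fold from MM134 LTED-A down to SUM44F, with 1 overlapping pair (MM134 LTED-D and LTED-B). SPRY4 spanned 16.3-fold from MM134 LTED-E to SUM44 LTED-A with no overlap, and SPRY1 80.2-fold from MM134 LTED-A to MM134 parental cells with 1 overlap (SUM44 LTED-B and LTED-A). DUSP6 spanned 13.0-fold from MM134 LTED-D to SUM44 LTED-A, with 2 overlapping pairs. FGFRL1, by contrast, spanned 2.34-fold, and 6 of its 8 neighbouring pairs overlapped. FGFR3 spanned 8.08-fold from SUM44 LTED-B to MM134 parental cells, FGFR2 10.5-fold from SUM44PE to MM134 LTED-A, and each had 3 overlapping pairs.

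The rest of the pathway was described from lists chosen by function, with counts of genes DE in the same direction in at least 3 MM134 variants or in both SUM44 variants. Over all genes these shares were 6.66% higher and 6.83% lower in MM134, and 3.87% higher and 4.75% lower in SUM44. None of the 12 tested FGF ligands was higher in at least 3 MM134 variants and 2 were lower. They were FGF12, an intracellular FGF homologue that modulates sodium channels (-2.87 in LTED-A), and FGF9, which had 12 to 14 counts in each parental library and 0 to 11 in those of the variants. In SUM44 FGF12 (-2.23 and -1.14) and FGF7, a ligand of the epithelial FGFR2 isoform (-1.10 and -0.95), were lower in both variants, but without SUM44F replicate 1 the FGF7 values (-1.11 and -0.96) were not DE in either. The median log2 fold change over the tested ligands ranged from -0.63 in LTED-D to -0.13 in LTED-B among MM134 variants, and was -0.51 and -0.72 in the SUM44 variants, where the median over all genes was -0.057 and -0.093.

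Of 13 co-receptors and heparan sulfate carriers tested in MM134, 3 were upregulated and 5 downregulated in at least 3 variants, and of 12 in SUM44, 1 and 1 in both, beside 6.66%, 6.83%, 3.87% and 4.75% of all genes. SDC1, the main epithelial syndecan, rose in all 4 MM134 variants (1.64 to 1.89), whereas SDC2 fell in all 6, to -7.62 in SUM44 LTED-B. FLRT1, a transmembrane protein of a family that binds FGFRs, rose in all 4 MM134 variants from 2.01 to 3.85, at a mean of 4.61 CPM or less. GPC1, a glypican anchored by lipid, went in opposite directions, from -0.86 to -1.18 in MM134 and to 0.83 and 0.94 in SUM44. Among 12 adaptors, which include GRB2, SOS1, PTPN11 and PLCG1, none was DE in at least 3 MM134 variants or in the same direction in both SUM44 variants. In single variants up to 4 of the 12 were DE in the edgeR quasi-likelihood test, as in MM134 LTED-A, beside 20.3% of all genes.

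Of the 12 genes of the RAS-ERK core 1 was upregulated in at least 3 MM134 variants, beside 6.66% of all genes. In both SUM44 variants 2 were upregulated and 1 downregulated, beside 3.87% and 4.75% of all genes. MAPK3, which encodes ERK1, was the gene upregulated in MM134 (0.84 (SE 0.047) in LTED-A, 1.17 (SE 0.047) in LTED-D). It was upregulated in both SUM44 variants too (0.85 (SE 0.12) and 0.80 (SE 0.11)). BRAF was the other gene higher in both SUM44 variants (0.59 and 0.59), though in neither without SUM44F replicate 1 (0.57 and 0.56), and RASA1, a GTPase-activating protein that turns RAS off, was lower (-0.83 and -0.69). The median over the core was between 0.11 and 0.19 in the MM134 variants, and 0.32 and 0.30 in the SUM44 variants, beside -0.057 and -0.093 over all genes.

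Of 10 other feedback inhibitors, 3 were upregulated and 3 downregulated in at least 3 MM134 variants, and 2 and 1 in both SUM44 variants, beside 6.66%, 6.83%, 3.87% and 4.75% of all genes. DUSP4, a nuclear phosphatase of ERK, was upregulated in all 6 variants at similar size, from 1.70 (SE 0.025) to 1.87 (SE 0.025) in MM134 and at 1.63 (SE 0.089) and 1.65 (SE 0.083) in SUM44. DUSP5, also nuclear, was lower in 3 MM134 variants (-0.87, -1.53 and -1.26) and higher in both SUM44 variants (0.98 and 1.29). IL17RD, known as Sef and an inhibitor of FGF signalling at the membrane, had the opposite arrangement, up in LTED-A (0.86), LTED-B (1.26) and LTED-E (1.19) of MM134 and down in SUM44 (-1.26 and -0.61). Without SUM44F replicate 1 IL17RD was DE in SUM44 LTED-A (-1.23) and not in LTED-B (-0.58). DUSP9 had 14 to 23 counts in each MM134 parental library and 0 or 1 in those of LTED-A and LTED-B. The phosphatases of ERK did not all move in the same direction.

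**Figure D5:**
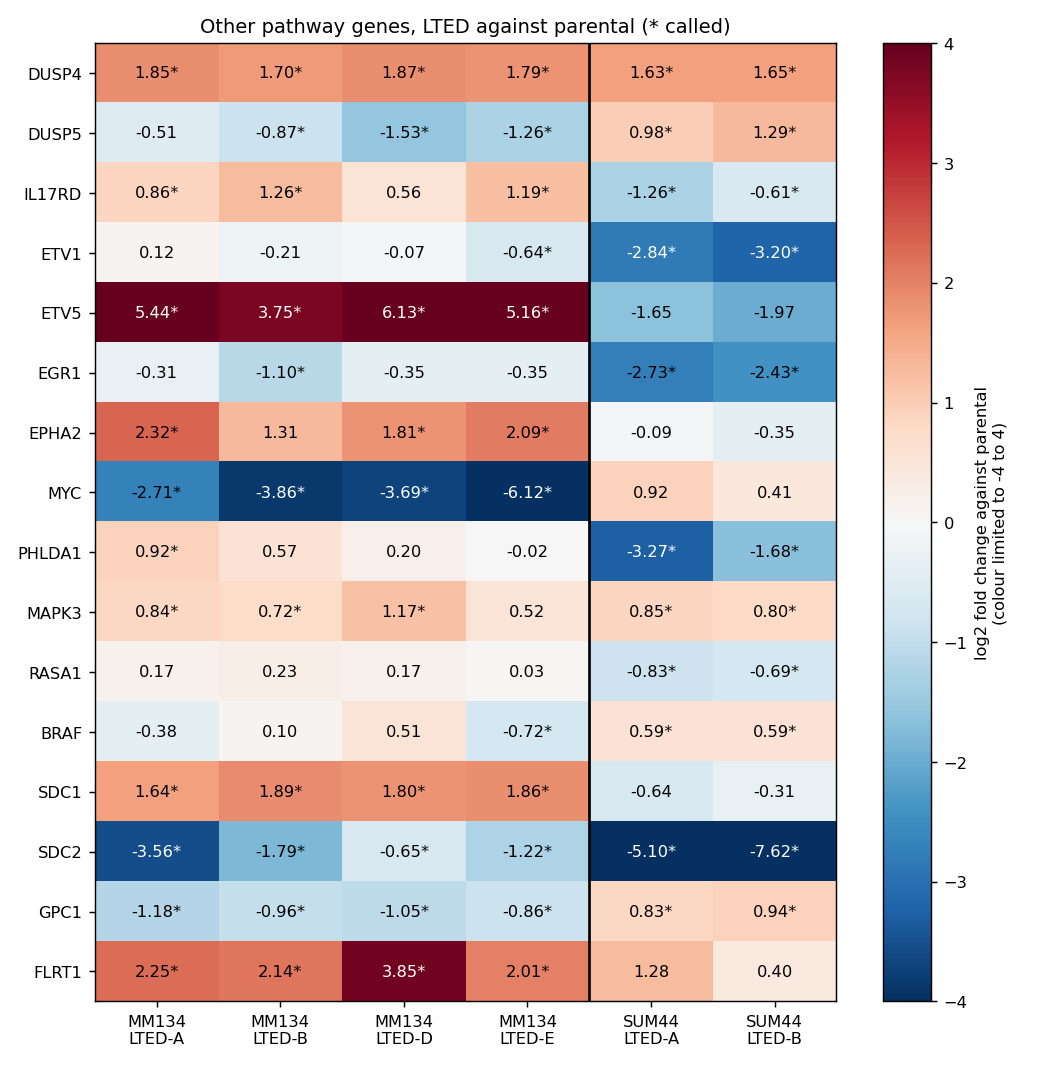
Heat map of the log2 fold change of 16 other pathway genes (rows) in each LTED variant against its parental cells (columns), red for higher and blue for lower, with an asterisk on the DE genes. DUSP4 was higher in all 6 columns, from 1.63 to 1.87, and SDC2 lower in all 6, while ETV5 was higher in the 4 MM134 columns alone.

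Of 11 ERK output genes, which are transcribed when ERK is active, 2 were upregulated and 2 downregulated in at least 3 MM134 variants, and 1 and 3 in both SUM44 variants, beside 6.66%, 6.83%, 3.87% and 4.75% of all genes. ETV5, an ETS factor induced by FGF signalling, rose in all 4 MM134 variants, from 3.75 (SE 0.090) in LTED-B to 6.13 (SE 0.074) in LTED-D (edgeR quasi-likelihood test, BH-adjusted p = 1.29e-16 and 7.1e-21), from a parental mean of 0.396 CPM. In SUM44 it had 27 counts or fewer in every library and was not DE. EPHA2, a receptor kinase, rose in LTED-A (2.32), LTED-D (1.81) and LTED-E (2.09). MYC, the growth regulator, fell in all 4 MM134 variants, from a parental mean of 19.4 CPM to between 0.279 and 2.97 CPM.

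In SUM44 the output genes PHLDA1 (-3.27 and -1.68), ETV1 (-2.84 and -3.20) and EGR1 (-2.73 and -2.43) were lower in both variants, and CCND1 was higher. ETV1 and EGR1 were low there, at 1.04 and 1.76 CPM in SUM44F. MYC was not DE in SUM44 LTED-A with all libraries (0.92) but was without SUM44F replicate 1 (1.07). DUSP6 was lower in the same SUM44 variants as PHLDA1, ETV1 and EGR1, and CCND1 was higher there. In MM134, DUSP6 was higher in LTED-A and LTED-D, in which ETV5 had its highest levels of 17.5 and 27.8 CPM. The output genes did not all follow DUSP6. ETV5 also rose in LTED-B and LTED-E (5.16 in LTED-E), in which DUSP6 was not DE, and MYC fell in all 4 MM134 variants. The list median in MM134 stayed close to that of all genes, from -0.21 in LTED-B to 0.11 in LTED-A.

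Genes next to the members on the chromosome were counted in the same way. Over all genes the shares were 6.66% higher and 6.83% lower in MM134, and 3.87% and 4.75% in SUM44. Of 7 FGFR1 neighbours 1 was higher (PLPP5, 1.24 in LTED-A) and 1 lower (TACC1, -0.93) in at least 3 MM134 variants. TACC1 was also lower in both SUM44 variants (-3.96 (SE 0.087) and -5.54 (SE 0.081)), where FGFR1 itself was not DE. Of 6 FGFR4 neighbours none was higher and 1 was lower (MXD3, -0.91 in LTED-A) in at least 3 MM134 variants, beside the rise of FGFR4 itself, and in SUM44 PRELID1 was higher in both (0.71 and 0.74). Of 7 tested neighbours of FGFR3 and FGFRL1 none was DE in at least 3 MM134 variants, and TACC3 (1.14 and 1.42) and NSD2 (0.87 and 0.85) were higher in both SUM44 variants. ANO1, a chloride channel next to FGF19, was higher in 3 MM134 variants (1.53, 1.82 and 1.89) and in SUM44 LTED-B (2.18).

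Across all 12226 protein-coding genes with at least 5 CPM in some group, the genes whose pattern over the 9 groups was most like each member were found by Pearson's r of mean log2(CPM + 1). For FGFR1 it was FBXO45 (r = 0.990), for FGFR2 MARK3 (0.954), for FGFR3 HSPE1 (0.873) and for FGFR4 DALRD3 (0.941) followed by SLC3A2 (0.924), a subunit of amino acid transporters. SPRY1 was most like AMBP (0.972), SPRY4 most like PLPP1 (0.978) and DUSP6 most like TMED8 (0.982). For FRS2 the nearest was TEAD2 (0.993), which like FRS2 separated the lines, and for FGFRL1 it was FAM114A2 (0.941). Groups share cell line, parental libraries and depth, so these values describe likeness among 9 group means only.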

How the data were processed

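RNA-sequencing (stranded total RNA, Illumina HiSeq 2000) was carried out on 27 libraries of MM134 and SUM44 cells. According to the labels and methods, the authors mapped reads to hg38 (Ensembl release 82), quantified genes with Salmon 0.6.0 and deposited estimated counts per gene, which split reads among transcripts by probability. Here these estimated counts were rounded to whole numbers. Of the gene identifiers, 56434 matched GENCODE 44, which supplied coordinates and transcript lengths (GRCh38, the same build), and 7473 of the 60619 genes had no count. Promoter sequences came from RefSeq (GRCh38.p14). Protein sequences were not used here. A further leukocyte marker in the summed level is not reported here.

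The counts of SUM44 LTED-A replicates 2 and 3 were averaged into 1 library. Genes with low counts were removed with filterByExpr, libraries were scaled with TMM, and DE genes were tested with the edgeR 4.0.16 quasi-likelihood test (R 4.3.3) in 1 fit over the MM134 libraries (26061 genes), 1 over SUM44F and its LTED variants (26834), 1 that added SUM44PE (27457) and 1 over both lines (29200). BH adjustment covered all genes of a fit, and DE required a fold change over 1.5 and adjusted p under 0.001. SE is the log2 fold change divided by the square root of the F statistic. Intervals were built from this SE with the normal distribution. They take no account of the few degrees of freedom of a fit and are therefore too narrow. Normalized CPM used 1 TMM scaling of all 26 libraries. Tests were checked on simulated counts. Alternatives were RLE scaling, no filter, DESeq2 1.42.0, a replicate block, each replicate left out, an adjusted p of 0.05, parental cells with a single variant, LTED-A replicates kept apart, and SUM44PE added.

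All 10 genes were described. From each pathway list, up to 3 genes with the largest mean absolute change were named among those DE in the same direction in at least 3 MM134 variants, and up to 3 among those DE so in both SUM44 variants, with the 3 genes most like each member by Pearson's r, of which the first, and for FGFR4 the second, is printed. Other adaptors are named as list members only. The genes and lists were chosen with earlier results of these data known.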

Additional observations from a re-analysis of the deposited data

Results flagged for a closer look

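The LTED change differed between MM134 and SUM44 for 6 genes by the interaction term of the edgeR quasi-likelihood test. The difference, MM134 minus SUM44 on the log2 scale, was 4.25 for SPRY1, 2.43 for DUSP6 and 1.92 for SPRY4. It was -3.15 for FGFR2, -0.88 for FGFR1 and -0.66 for FGFRL1. SPRY4 was also called in opposite directions in the 2 SUM44 variants, which differed by -2.10 (LTED-A minus LTED-B).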

How the results depend on the processing

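Of the recomputed values for the 9 tested genes, 1772 kept their direction and side of the threshold, 32 lost a call, 26 gained one and 15 changed sign. All sign changes were in differences that were not DE. Counts of DE genes among the 9 stayed within 1.5 times those in the report, except that SUM44 LTED-A against SUM44F gave 2 instead of 4 when fitted on its own, with fewer samples (SPRY1 and SPRY4 then had adjusted p of 0.00108 and 0.00424 in the edgeR quasi-likelihood test), and SUM44PE against SUM44F gave 2 to 3 when a replicate was left out, also instead of 4. FGFR2 in SUM44 LTED-A, not DE in the report, was DE with DESeq2 (1.23), without the filter (1.199), with SUM44PE in the fit (1.22) and with the LTED-A replicates kept apart (1.19). With 1 library left out, FGFR3 in MM134 LTED-A minus LTED-B was DE without LTED-B replicate 3 (-0.59) and FGFR2 in LTED-B minus LTED-D without LTED-B replicate 1 (-1.204), both not DE in the report. With all libraries, FGFR2 in LTED-B minus LTED-D was also DE with DESeq2 (-0.91) and without the filter (-0.88). So was FGFR2 in LTED-A minus LTED-D (-0.90 and -0.86). Chosen after seeing the data, a repeat for the pathway and neighbour genes without SUM44F replicate 1 gave the same counts in both SUM44 variants for 7 of the 10 lists. It gave 1 instead of 2 lower FGF ligands, 1 instead of 2 higher genes of the RAS-ERK core and 0 instead of 1 lower feedback inhibitor.

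FGFR2 in MM134 LTED-A minus LTED-B was 0.0028 with DESeq2, 0.0050 with RLE scaling, 0.018 without the filter and -0.19 to 0.31 with a replicate left out. With a replicate left out, DUSP6 in MM134 LTED-B against parental ran from -0.00088 to 0.067, the FGFR3 interaction from -0.13 to 0.096 (0.021 without the merged SUM44 LTED-A library), and FGFR3 in MM134 LTED-D minus LTED-E from -0.091 to 0.026. FGFRL1 in SUM44 LTED-B against SUM44F ran from -0.043 to 0.19, and SPRY1 in SUM44 LTED-A minus LTED-B from -0.10 to 0.032 (-0.18 without the merged LTED-A library). Where 1 library was left in an arm, it was assumed to vary like the other groups. The cause of these changes was not tested.

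Equal replicate numbers did not pair the wells: deviations of same-numbered libraries correlated at -0.26 to 0.185 in MM134 (median -0.0043 over 30 pairs of libraries) and -0.148 to 0.18 in SUM44 (median 0.017, 15 pairs). With the replicate block, FGFR1 in SUM44 LTED-A minus LTED-B (-0.69, edgeR adjusted p = 0.00324), FGFRL1 between the parental lines (0.53) and SPRY4 in SUM44PE (0.68) were not DE, FGFR2 in MM134 LTED-A minus LTED-D was (-0.91), and no other call of the 9 genes changed.

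With an adjusted p of 0.05, genes DE over the whole table numbered 6386 instead of 3669 in SUM44 LTED-A, 7895 instead of 4632 in SUM44 LTED-B, 2871 instead of 1530 in SUM44PE, 3881 instead of 1990 between the SUM44 variants, and 3165 instead of 1929 between MM134 LTED-B and LTED-D. SUM44 LTED-A fitted with SUM44F alone gave 2190, and the SUM44 variants gave 1104 to 1165 without LTED-A replicate 1 or without any single LTED-B library. FGF19 had too few counts to be tested at this depth.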
